A study of Mus musculus with 41 samples.

Results

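The genes described here carry out or control the absorption of fetal lung liquid. The 9 members are the 3 subunits of the epithelial sodium channel (Scnn1a, Scnn1b and Scnn1g), the kinase Sgk1, the ubiquitin ligase Nedd4l, the sodium pump subunit Atp1b1, the chloride channel Cftr and the water channels Aqp1 and Aqp5. They were chosen by symbol from the 24371 genes in each of 4 count tables of fetal mouse lung, and all 9 were found in every table. The series set fetal lung exposed to dexamethasone, a synthetic glucocorticoid, beside fetal lung given saline or no stated treatment. In the first set, pregnant mice were injected at E18.5 with saline or with dexamethasone at 1 mg/kg. After 2 hours, GFP-positive, tdTomato-negative cells were sorted from fetuses carrying Twist2Cre and the Rosa26mT/mG reporter, in which the Twist2 promoter drives Cre and so marks mesenchyme. Lungs were pooled by genotype, with 4 dexamethasone and 2 saline pools. In the second set, E18.5 lung was separated by CD106, a surface adhesion protein (gene Vcam1), giving 2 CD106+ and 2 CD106- libraries with no treatment named in their labels. A single CD106+ library came from lung treated with 1 mg/kg dexamethasone, with no injection day or exposure time named for it. In the last set, 15 cells from C57Bl6/J lung exposed to 2 mg/kg dexamethasone at E17.5 and 11 exposed to saline were profiled one by one 24 hours after injection. Another 4 chromatin accessibility samples of the 41 were not analysed here.

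The fetal lung secretes chloride-rich liquid that keeps the airspaces open, and CFTR is one of the apical channels that let chloride out. Around birth the epithelium turns to absorption. Sodium enters through the apical channel that the 3 Scnn1 subunits form, and the basolateral sodium pump, of which Atp1b1 encodes the beta-1 subunit, moves it out of the cell, with water following. NEDD4L tags the channel for removal from the membrane, and SGK1 phosphorylates NEDD4L and so keeps the channel at the surface. Glucocorticoids are known to raise Scnn1a and Sgk1 in lung epithelium. AQP5 is the water channel of the apical face of type I alveolar cells, and AQP1 is known in lung mainly from endothelium.

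Levels are given as CPM, each count divided by its library total and rescaled. Totals were 1670896 to 7133941 counts in bulk libraries and 215623 to 1787997 in single cells. Of the known glucocorticoid targets, Fkbp5 stood at 176 to 260.2 CPM in treated and 28.7 and 40.7 in saline mesenchyme pools, while Per1 overlapped, at 63.5 to 134.7 against 58.7 and 73.2. Sex did not balance between those groups: the Y-linked Ddx3y was at 74.4 to 174 CPM in treated pools but 1.20 and 0 in saline pools, and Xist, transcribed from the inactive X chromosome of females, at 6.59 to 11111 against 33133 and 20880, so fetal sex and treatment cannot be fully told apart. Vcam1 matched the CD106 sort of the untreated libraries, at 551 and 687 CPM in CD106+ against 1.35 and 3.00 in CD106- libraries. In the treated CD106+ library Vcam1 was at 268 CPM, below both untreated CD106+ libraries. Both fractions held epithelial transcripts. The summed level of 12 epithelial markers was 5551 and 6208 CPM in CD106- libraries, 2660 and 4333 in CD106+ libraries and 28.9 to 290 in the mesenchyme pools of either treatment. The treated CD106+ library stood apart from the untreated ones, with 6 endothelial markers summing to 1913 CPM against 73.6 and 96.2. In these mixtures, fewer cells of a type and less RNA per cell cannot be told apart. No label ties a pool or fraction to its own litter, and the p-values then measure only how these samples spread, which may be technical.

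Sgk1, which encodes the kinase, lies on chromosome 10 from 21882184 to 21999903 (GRCm38) and has 6 annotated starts in RefSeq's promoter table for GRCm38.p6. It is shown because it had the highest ratio of the 9 members in the treated CD106+ library. Glucocorticoid receptor dimers bind inverted repeats of AGAACA and TGTTCT set 3 bases apart. Windows from 250 bases before to 50 after each start were searched on both strands for that palindrome, for its core ACANNNTGT and for TATAAA. The full palindrome was found in 3 of 32851 windows (0.00913%), those of Sgk1, Acnat2 and Gm35041, while the core was found in 6.85% and TATAAA in 13.6%. The 250 bases before the fifth and sixth Sgk1 starts follow, with the palindrome and TATAAA in capitals.
Sgk1 start 5, chr10:21993640-21993889, plus strand: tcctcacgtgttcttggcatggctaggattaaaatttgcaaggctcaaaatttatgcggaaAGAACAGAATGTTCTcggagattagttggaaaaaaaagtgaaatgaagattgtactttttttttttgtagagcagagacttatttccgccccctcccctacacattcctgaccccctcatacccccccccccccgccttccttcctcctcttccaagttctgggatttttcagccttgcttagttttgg
Sgk1 start 6, chr10:21994416-21994665, plus strand: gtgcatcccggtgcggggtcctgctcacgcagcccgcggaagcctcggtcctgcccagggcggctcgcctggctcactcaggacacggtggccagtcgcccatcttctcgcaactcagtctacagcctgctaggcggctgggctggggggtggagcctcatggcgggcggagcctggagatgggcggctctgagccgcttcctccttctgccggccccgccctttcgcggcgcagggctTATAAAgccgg
The palindrome begins at position -189 from start 5 and 965 bases before start 6, and contains 1 match to the core by construction. The core also occurred once before start 2, at -127, and TATAAA before start 4, at -28, and start 6, at -11. None of the 3 motifs was found in the windows of Scnn1b, Scnn1g, Atp1b1, Cftr, Aqp1 or Aqp5. A match is a run of letters and not a measured binding site. The count tables are per gene, so the start that gave each Sgk1 read is not known.

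The first comparison asked which fraction of the untreated E18.5 lung carries each gene. Most of the transport genes stood higher in CD106- cells, the fraction with more epithelial transcripts, and Sgk1 was the exception. Cftr, Scnn1g, Nedd4l and Atp1b1 were lower in CD106+ cells by edgeR's quasi-likelihood test, by 1.11 to 1.32 on the log2 scale. That is 4 of the 8 members tested, against 3.35% of 12364 genes called lower, and none was called higher, against 6.67% of all genes. The median log2 difference over those 8 was -1.13, beside 0.05 over all genes tested.

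Cftr (chromosome 6, 18170687 to 18322770) was at 276 and 233 CPM in CD106- libraries and at 138 and 75.1 in CD106+ libraries. The fractions did not overlap, and the log2 difference was -1.27 (SE 0.31, edgeR adjusted p = 0.0088). Scnn1g (chromosome 7, 121734420 to 121768482), the gamma subunit of the sodium channel, was at 57.7 and 49.8 CPM in CD106- libraries against 23.7 and 20.6. Its replicates lay close together in both fractions, with a log2 difference of -1.32 (SE 0.33, edgeR adjusted p = 0.0095).

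Scnn1a (chromosome 6, 125314271 to 125344943), the pore-forming alpha subunit, was at 33.3 and 44.6 CPM in CD106- libraries and 17.2 and 25.4 in CD106+ libraries. The libraries separated, but the log2 difference of -0.93 (SE 0.36) did not pass edgeR's threshold (adjusted p = 0.12). Scnn1b (chromosome 7, 121865038 to 121918728), the beta subunit, was scarce everywhere. It was at 4.62 and 3.83 CPM in CD106- and 1.00 and 1.54 in CD106+ libraries (log2 difference -1.75, SE 0.82, edgeR adjusted p = 0.23).

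Nedd4l (chromosome 18, 64884480 to 65217826), which acts against the channel, was at 473 and 446 CPM in CD106- libraries. In CD106+ libraries it was at 284 and 136 CPM, so the replicates of that fraction lay far apart (log2 difference -1.15, SE 0.34, edgeR adjusted p = 0.032). Atp1b1 (chromosome 1, 164437099 to 164458355) was at 922 and 944 CPM in CD106- against 496 and 389 in CD106+ libraries. The log2 difference was -1.11 (SE 0.32, edgeR adjusted p = 0.023). Its deposited counts were not whole in 11 of 11 bulk libraries, so they may include reads shared with another gene.

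Sgk1 went the other way, at 4.41 and 5.47 CPM in CD106+ and 1.15 and 1.66 in CD106- libraries. The log2 difference of 1.74 (SE 0.79) did not pass (edgeR adjusted p = 0.21). Aqp1 (chromosome 6, 55336299 to 55348555) was at 18.8 and 6.73 CPM in CD106+ against 20.4 and 25.1 in CD106- libraries (edgeR adjusted p = 0.36). Aqp5 (chromosome 15, 99591028 to 99594829) was at most 1.00 CPM in these 4 libraries and was not tested. Of the 8 members tested, 7 had both CD106+ libraries below both CD106- libraries, against 22.1% of all genes, and Sgk1 had both above, against 25.7%.

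Epithelial markers moved with these members. Of 12, 5 were lower in CD106+ cells, against 3.35% of all genes. Among them was Cdh1, which encodes E-cadherin (607 and 574 against 1166 and 1327 CPM, edgeR adjusted p = 0.024). Set against Cdh1 in the same library, Cftr stood at 0.23 and 0.13 per unit of Cdh1 in CD106+ and at 0.24 and 0.18 in CD106- libraries. The same quotient for Atp1b1 was 0.82 and 0.68 against 0.79 and 0.71, for Scnn1g 0.039 and 0.036 against 0.049 and 0.038, and for Nedd4l 0.47 and 0.24 against 0.41 and 0.34. Per unit of Cdh1, then, the ranges of the fractions overlapped for all 4 of these genes. That holds for Cdh1 only, as no other marker was used in this way. Cdh1 itself had a log2 difference of -1.12, and the 12 epithelial markers ranged from -1.28 (Sftpb) to 0.38 (Foxj1). With 1 CD106- library left out, the lone one was assumed to vary like the CD106+ pair. Scnn1g, Nedd4l and Atp1b1 then lost their calls whichever it was (edgeR adjusted p up to 0.17, 0.18 and 0.36), and Cftr lost its call without CD106- library 1 (adjusted p = 0.097). The log2 differences with any 1 library left out were -1.50 to -1.15 for Scnn1g, -1.87 to -0.66 for Nedd4l, -1.38 to -0.88 for Atp1b1 and -1.87 to -0.84 for Cftr.

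**Figure D1:**
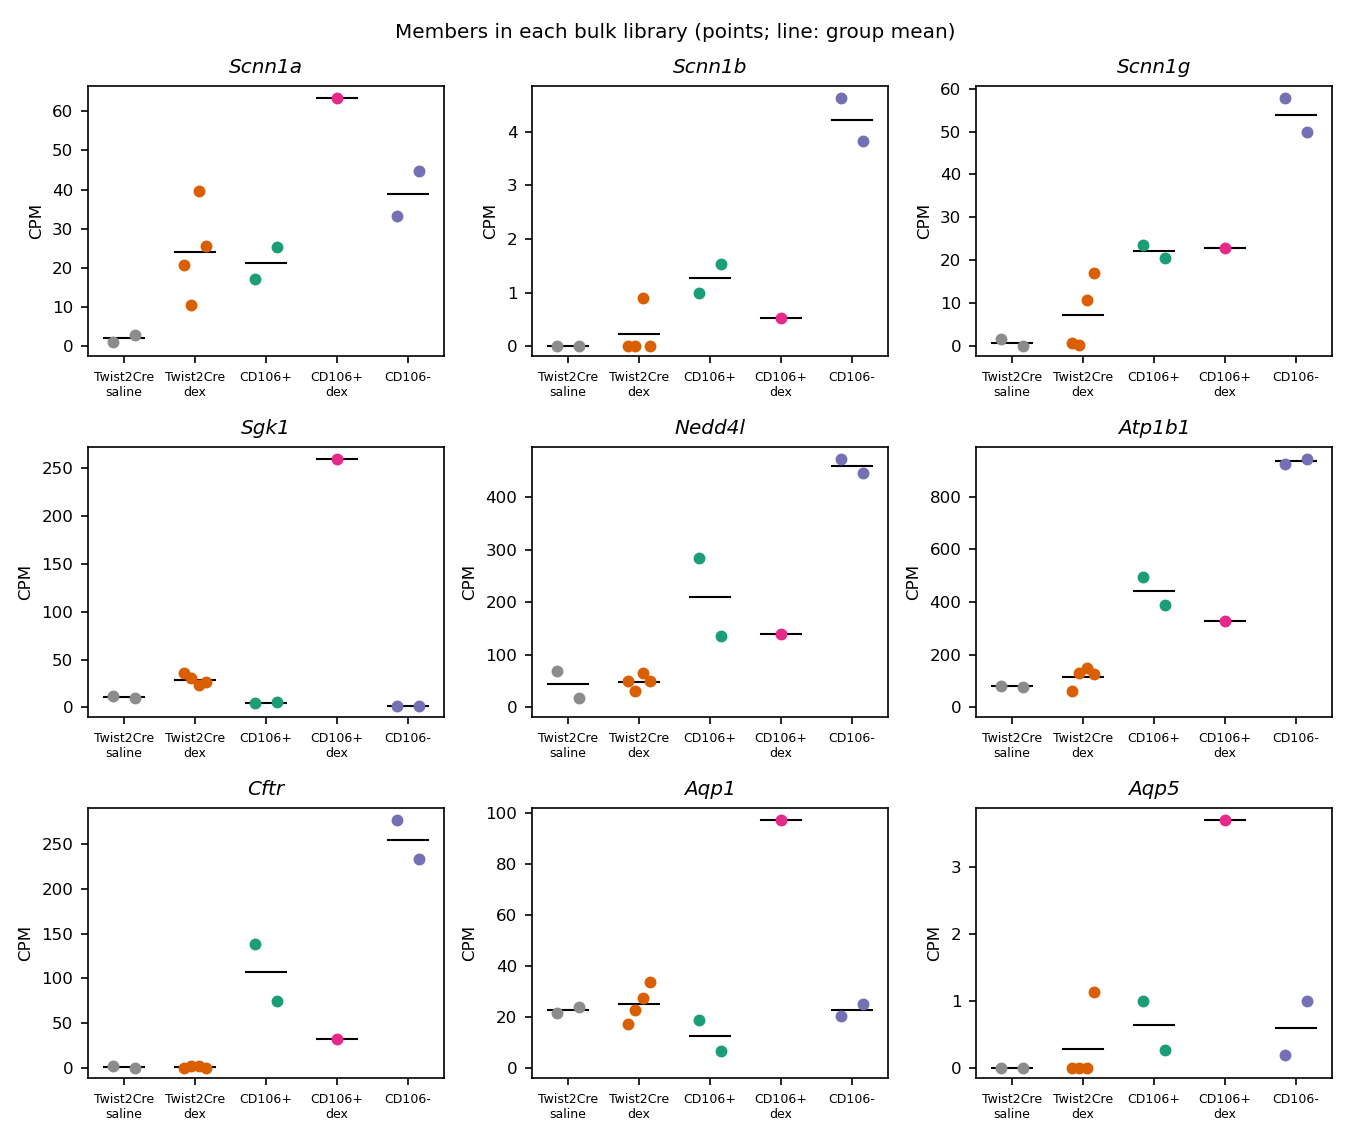
CPM of each member (vertical axes, each starting at 0 with its own scale) in the 11 bulk libraries, 1 point per library with a line at the group mean. Scnn1b, Scnn1g, Nedd4l, Atp1b1 and Cftr were highest in CD106- libraries, and Scnn1a, Sgk1, Aqp1 and Aqp5 in the treated CD106+ library.

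Set side by side over the 5 bulk groups, 5 members had their highest mean in CD106- cells and 4 in the treated CD106+ library. For Cftr the order was CD106- (254 CPM), CD106+ (107), treated CD106+ (32.2) and then both mesenchyme groups (1.91 and 1.49), whose ranges overlapped. The means of Atp1b1 and Nedd4l shared that order, with mesenchyme means of 80.6 and 117 CPM and of 43.8 and 49.1, whose ranges overlapped within each gene. For Nedd4l the treated CD106+ library (139 CPM) also lay between the untreated CD106+ libraries (284 and 136). Scnn1a differed from that order. The mean of the treated mesenchyme (24.2 CPM) lay beside those of CD106- (38.9) and CD106+ cells (21.3), with overlapping ranges, and the saline mesenchyme (2.04) lay below them all. These levels come from separate tables and sorts, and no test was made across them.

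The comparison of dexamethasone with saline asked how the mesenchyme had responded after 2 hours. Scnn1a rose and was the 1 member of 6 tested to pass, against 1.95% of 11356 genes that rose. No member fell, against 0.74% of all genes. The median log2 fold change over the 6 was 1.05, beside -0.01 over all genes tested. Outside the member list, the glucocorticoid-activating enzyme gene Hsd11b1 and Tsc22d3, which encodes GILZ, also rose.

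Scnn1a was at 20.8, 10.54, 39.6 and 25.6 CPM in the treated pools and at 1.20 and 2.88 in the saline pools. Every treated pool lay above both saline pools. The means were 24.2 ± 12.1 (SD, n = 4) and 2.04 ± 1.19 (SD, n = 2), a log2 fold change of 3.54 (SE 0.68, edgeR adjusted p = 0.0079). Sgk1 was at 35.7, 30.2, 23.9 and 26.02 CPM after dexamethasone and at 12.0 and 9.46 after saline. The groups again did not overlap, but the log2 fold change of 1.50 (SE 0.44) did not pass (edgeR adjusted p = 0.079). These were 2 of the 6 members tested with no overlap, against 9.99% of genes with every treated pool above both saline pools.

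Scnn1g was uneven among the treated pools, at 0.71, 0.34, 10.8 and 17.0 CPM, against 1.80 and 0 in saline pools. The higher values were in pools 3 and 4, where the summed epithelial markers were also higher, at 290 and 221 CPM against 28.9 and 33.6 in pools 1 and 2. Saline pool 1 had a like sum of 227 CPM with Scnn1g at 1.80 CPM. The part of these summed markers in the Scnn1g values was not tested (log2 fold change 3.13, SE 1.65, edgeR adjusted p = 0.44). Scnn1b had counts in 1 of the 6 pools, at 0.90 CPM, and the 0 counts of the saline pools together allow a level of up to 0.73 CPM.

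Markers of several cell types differed between the same pools. Cdh1 was at 0.24, 1.02, 14.9 and 7.17 CPM in treated pools 1 to 4 and at 20.4 and 13.6 in saline pools. Chondrocyte markers summed to 6.39 to 283 CPM after dexamethasone against 1182 and 451, smooth muscle markers to 987 to 1054 against 1543 and 1891, and cardiac markers to 150.1 to 273 against 323 and 371. None of the tested genes in those 3 lists passed. The matrix fibroblast gene Meox2 fell, at 63.4 ± 12.2 (SD, n = 4) against 186 ± 50.1 CPM (SD, n = 2; log2 fold change -1.48, edgeR adjusted p = 0.0027). Apart from a refit with Cdh1 as a covariate, given below, the part of these shifts in the member values was not tested. Hopx is a marker of type I alveolar cells that is also expressed elsewhere. Of 8 epithelial markers tested it was the 1 that rose, against 1.95% of all genes. It stood at 20.9 ± 1.89 (SD, n = 4) against 3.03 ± 0.79 CPM (SD, n = 2; log2 fold change 2.86, edgeR adjusted p = 0.0085).

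Aqp1 was at 17.52 to 33.9 CPM after dexamethasone and at 21.5 and 24.3 after saline (log2 fold change 0.21, SE 0.41, edgeR adjusted p = 0.89). Nedd4l was at 30.9 to 65.3 CPM against 69.4 and 18.1 (log2 fold change 0.21, SE 0.46, edgeR adjusted p = 0.91). Atp1b1 was at 63.4 to 148 CPM against 82.5 and 78.7 (log2 fold change 0.59, SE 0.31, edgeR adjusted p = 0.43). All 3 overlapped between treatments. Cftr was at 0.24 to 2.72 CPM in treated and 2.99 and 0.82 in saline pools, and Aqp5 at 0 in 5 of the 6 pools. Cftr, Scnn1b and Aqp5 were too low to test.

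**Figure D2:**
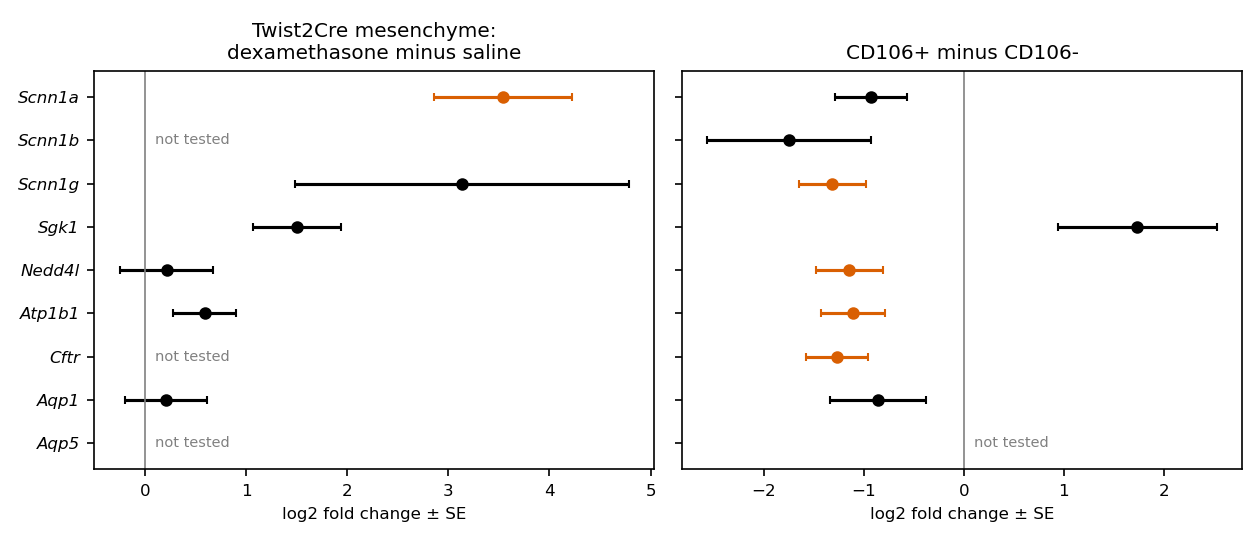
Log2 fold change with its SE (horizontal axes) for each member in the mesenchyme, dexamethasone minus saline, and in CD106+ minus CD106- cells, from edgeR. Orange marks an adjusted p under 0.05: Scnn1a at 3.54 on the left, and Scnn1g, Nedd4l, Atp1b1 and Cftr between -1.32 and -1.11 on the right.

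Of 21 other regulators of the sodium channel, 14 were tested in the mesenchyme, 3 rose and 0 fell, against 1.95% and 0.74% of all genes. The list was chosen with earlier results of these data known and holds the glucocorticoid target Tsc22d3. Hsd11b1, the enzyme that regenerates active glucocorticoid inside cells, was at 273 ± 50.8 (SD, n = 4) against 125 ± 52.1 CPM (SD, n = 2; log2 fold change 1.20, SE 0.27, edgeR adjusted p = 0.021). Tsc22d3, which encodes GILZ, an inducible partner of SGK1 at the channel, was at 159 ± 22.4 (SD, n = 4) against 48.5 ± 11.1 CPM (SD, n = 2; log2 fold change 1.77, SE 0.27, edgeR adjusted p = 9.9e-04). The receptor gene Nr3c1 was at 186 to 251 CPM after dexamethasone and 343 and 378 after saline (log2 fold change -0.63, SE 0.21, edgeR adjusted p = 0.14).

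Among 12 partners of Atp1b1 in the sodium pump, 7 were tested, 1 rose and 0 fell, against 1.95% and 0.74% of all genes. Of 15 genes of chloride and counter-ion transport, 8 were tested and none passed, and all 8 other aquaporins were too low to test. Slc12a2, the basolateral cotransporter that loads chloride for secretion, was at 180 ± 21.7 (SD, n = 4) against 143 ± 7.07 CPM (SD, n = 2; edgeR adjusted p = 0.48).

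The calls in the mesenchyme rest on 2 saline pools. Without saline pool 1, Scnn1a lost its call (edgeR adjusted p = 0.062) and Hsd11b1 did so without each of 3 pools in turn, while Tsc22d3 kept its call with any pool left out. With Xist as a covariate for sex, the log2 fold change of Scnn1a was 2.26 (edgeR adjusted p = 0.16), and with Cdh1, a covariate added after the values were seen, it was 4.07 (edgeR adjusted p = 0.0034).

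**Figure D3:**
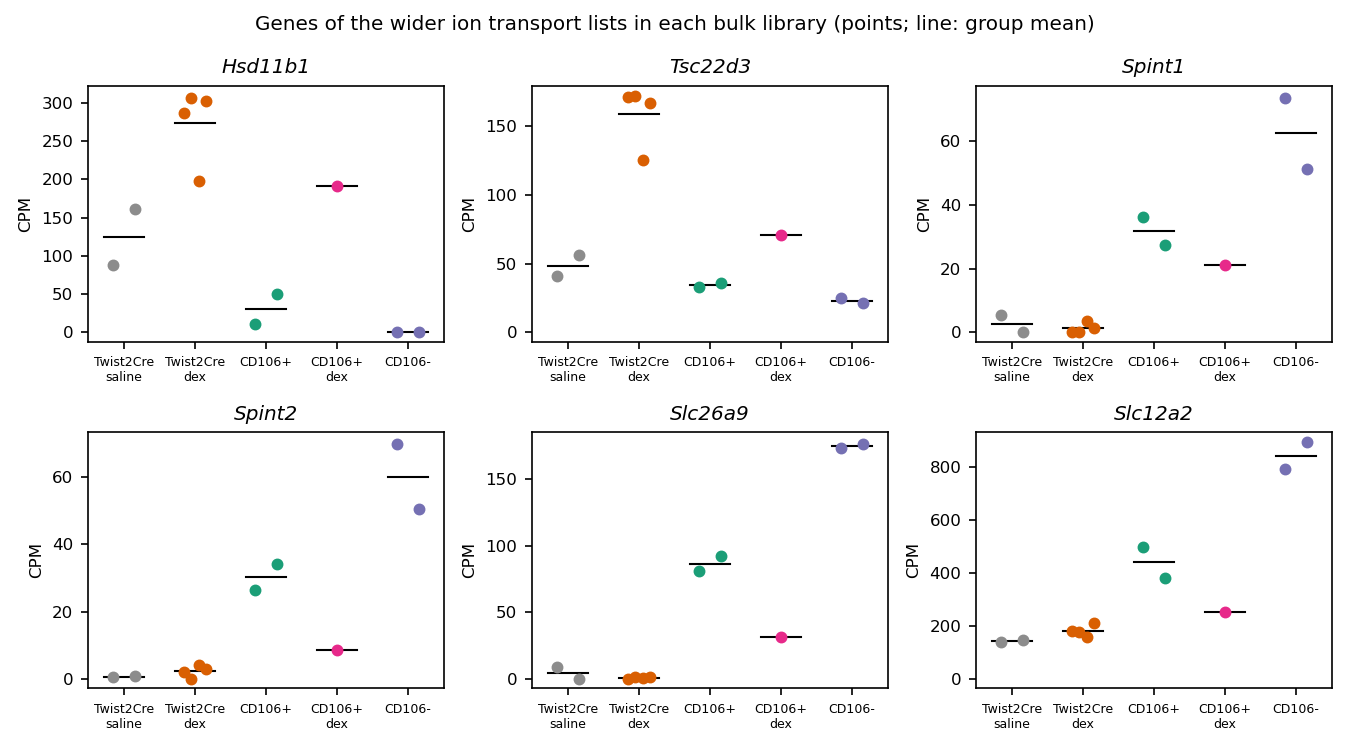
CPM of 6 genes of the wider sodium and chloride transport lists (vertical axes from 0) in the 11 bulk libraries, 1 point per library with a line at the group mean. Hsd11b1 and Tsc22d3 were higher in all 4 treated mesenchyme pools than in both saline pools, and Spint1, Spint2, Slc26a9 and Slc12a2 were highest in CD106- libraries.

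The same lists also differed between the untreated fractions. Of 18 regulators tested, 2 were lower in CD106+ cells and 1 was higher, against 3.35% and 6.67% of all genes. The lower ones were Spint1 and Spint2, inhibitors of the proteases that activate the channel (log2 differences -0.999 and -1.03, edgeR adjusted p = 0.047 and 0.035). Hsd11b1 was higher there, at 11.6 and 50.7 against 0.77 and 0 CPM (edgeR adjusted p = 0.0011). Among 6 pump partners tested, 1 was higher in CD106+ cells and 0 were lower, against 6.67% and 3.35% of all genes. The chloride channels and transporters Ano1, Clcn3 and Slc26a9 were lower there, which is 3 of 11 tested, against 3.35% of all genes. Their log2 differences were -0.94, -1.24 and -1.06 (edgeR adjusted p = 0.030, 0.0060 and 0.0092). Slc12a2 was at 499 and 381 against 791 and 891 CPM (edgeR adjusted p = 0.052). Each of these calls other than that of Hsd11b1 was lost without at least 1 of the 4 libraries.

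The treated CD106+ library was read beside the 2 untreated CD106+ libraries, with no replicate of its own, and its values are given as ratios without a test. Sgk1 showed the highest ratio of the members, at 259 CPM against 4.41 and 5.47, which is 52.5-fold the untreated mean. Aqp1 was at 97.6 CPM against 18.8 and 6.73 (7.63-fold) and Scnn1a at 63.3 against 17.2 and 25.4 (2.97-fold). Cftr was at 32.2 CPM against 138 and 75.1 (0.30-fold). Of the 7 members at 10 CPM or more, 3 lay above both untreated libraries and 2-fold or more above their mean (on CPM plus 1), against 11.9% of 9792 genes. By the same rule 1 lay below, against 17.4%.

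Of the other members, Scnn1g was at 23.0 CPM, between the untreated 23.7 and 20.6, and Nedd4l at 139 CPM, between 284 and 136. Atp1b1 was at 329 CPM, below 496 and 389. Scnn1b and Aqp5 stayed under 10 CPM. Scnn1b was at 0.53 against 1.00 and 1.54 CPM, and Aqp5 was at 3.69 against 1.00 and 0.28 CPM, above both. Hsd11b1 stood above both untreated libraries, at 191 CPM against 11.6 and 50.7.

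The cell mix of that library differed as well. The endothelial genes Pecam1 and Kdr were at 508 and 238 CPM, against 16.54 to 22.1 and 11.8 to 12.9 in the untreated CD106+ libraries. All 6 endothelial markers were above both untreated libraries. The 4 leukocyte markers summed to 55.4 CPM against 3.81 and 6.03. The 4 mesothelial markers summed to 39.0 CPM against 5.41 and 10.8, of which Msln made up 36.7 CPM. Msln and Wt1 (2.37 CPM) were above both untreated libraries, while Upk3b and Lrrn4 were at 0, below both. The 12 epithelial markers summed to 1713 CPM against 2660 and 4333 but did not move as one. Cdh1 and Epcam were at 249 and 27.4 CPM, against 574 to 607 and 198 to 205, whereas the club cell gene Scgb1a1 was at 210.3 CPM against 4.41 and 4.77, Hopx and Foxj1 were above both untreated libraries and Ager lay between them. The part of these markers in the values of Sgk1, Aqp1, Scnn1a and Cftr was not tested. Per unit of Cdh1, Cftr was 0.13, beside 0.23 and 0.13 in the untreated libraries. For Scnn1a the quotient was 0.25, beside 0.028 and 0.044. It was 0.092 beside 0.039 and 0.036 for Scnn1g, and 1.32 beside 0.82 and 0.68 for Atp1b1. For Nedd4l it was 0.56 beside 0.47 and 0.24. Sgk1, Aqp1 and Aqp5 also lay above both untreated quotients, and Scnn1b lay between them. Cdh1 was itself lower in this library, which raises every such quotient.

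**Figure D4:**
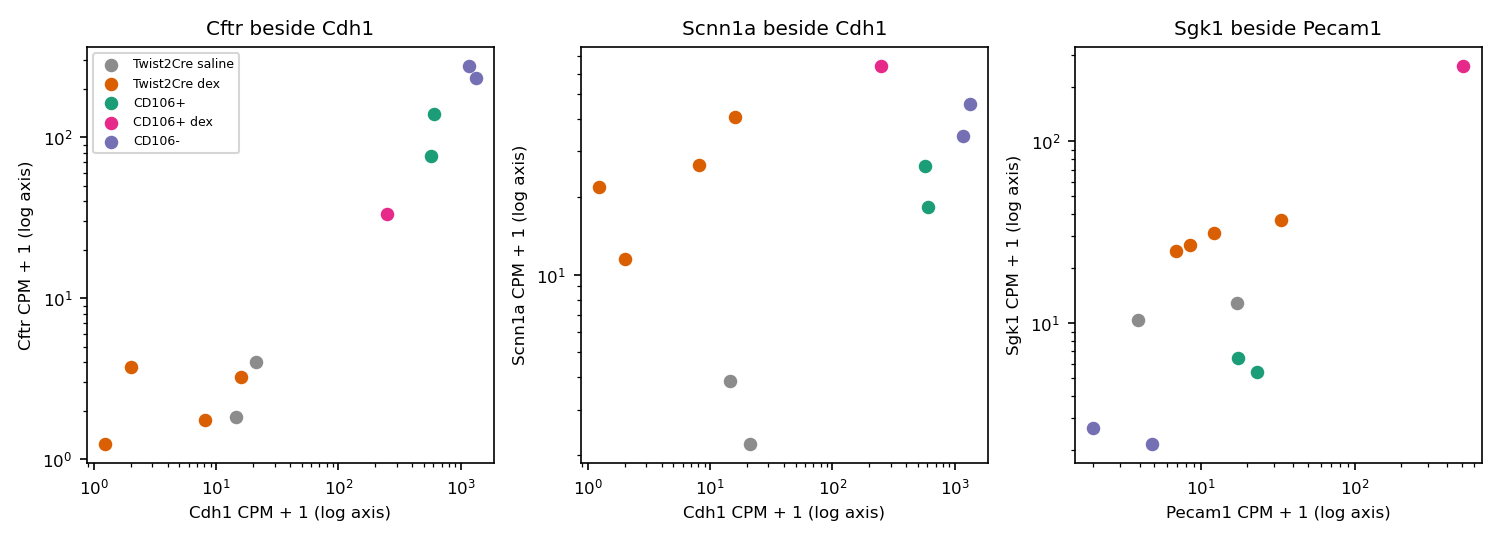
Cftr and Scnn1a beside the epithelial gene Cdh1, and Sgk1 beside the endothelial gene Pecam1, as CPM plus 1 on log axes, 1 point per bulk library. Cftr was high where Cdh1 was high, whereas Scnn1a was at 10.54 to 39.6 CPM in treated mesenchyme pools with Cdh1 at 0.24 to 14.9, and the treated CD106+ library held both the highest Sgk1 and the highest Pecam1.

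In single cells, the channel subunits and Cftr were at or near 0. Each of the few cells with Sgk1 or Aqp1 at 10 CPM or more held both endothelial and matrix fibroblast transcripts. Holding both does not set them apart, as all 26 cells had matrix fibroblast counts and most had endothelial ones. Each treatment counts as 1 sample, because the labels name no animal for the cells, and no test was made. Cftr had no count in any of the 26 cells, which allows a share of up to 11.5% of cells with a count. That bound takes the 26 cells, pooled across treatments, as independent draws, which the labels do not establish. It does not limit the share expressing the gene at a lower level. The epithelial gene Epcam had no count in any cell either, but other epithelial markers did. Sftpc had counts in all 11 saline and all 15 treated cells, at up to 683 and 7597 CPM. Cdh1 had counts in 3 saline and 8 treated cells, at up to 4.64 CPM. Scnn1a reached 5.84 CPM in its highest cell, Scnn1b 3.26 and Scnn1g 1.18. Aqp5 reached 9.28 CPM in its highest cell.

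Sgk1 summed over cells was 3.05 CPM after dexamethasone (95% exact Poisson interval 2.18 to 4.15) and 88.2 CPM after saline (83.5 to 93.1), where the intervals cover counting error only. The saline sum came mainly from 1 cell at 820 CPM and 1 at 85.6. The only other cell at 10 CPM or more was treated, at 17.4. All 3 had Pecam1 above 100 CPM, as did 5 of the 11 saline and 1 of the 15 treated cells. Without those 6 cells, the Sgk1 sums were 0.79 CPM after dexamethasone and 1.92 after saline. In the 3 cells with Sgk1 at 10 CPM or more, matrix fibroblast markers summed higher than endothelial ones. The sums were 9419 against 4270 CPM and 5877 against 3218 in the saline cells, and 17500 against 739 in the treated cell. Such sums do not rank cell types, because the lists hold different genes. Mfap4 of the matrix fibroblast list alone was at 13816 CPM summed over treated cells and 4035 over saline cells. Col1a1 of that list was at 3.37 CPM in the treated cell.

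Aqp1 was at 83.8, 40.5 and 12.9 CPM in 3 saline cells, all 3 of them with Pecam1 above 100 CPM, and no other cell passed 4.92 CPM. The cell at 83.8 CPM is the one with Sgk1 at 85.6. In the cells at 40.5 and 12.9 CPM, matrix fibroblast markers summed to 4200 and 4362 CPM and endothelial ones to 2684 and 861. Nedd4l reached 10 CPM in 4 cells, 3 of them saline (593, 407 and 18.52 CPM) and 1 treated (36.2), and 1 of the 4 had Pecam1 above 100 CPM. Atp1b1 reached it in 1 treated cell (346 CPM) with Pecam1 and 1 saline cell (49.4 CPM) without. The number of Pecam1-positive cells differed between the treatments, so the sums of Sgk1 and Aqp1 are not comparable between them as levels per cell type. The glucocorticoid target Tsc22d3 was itself lower in the treated cells 24 hours after injection, at 166 against 746 CPM summed over cells.

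**Figure D5:**
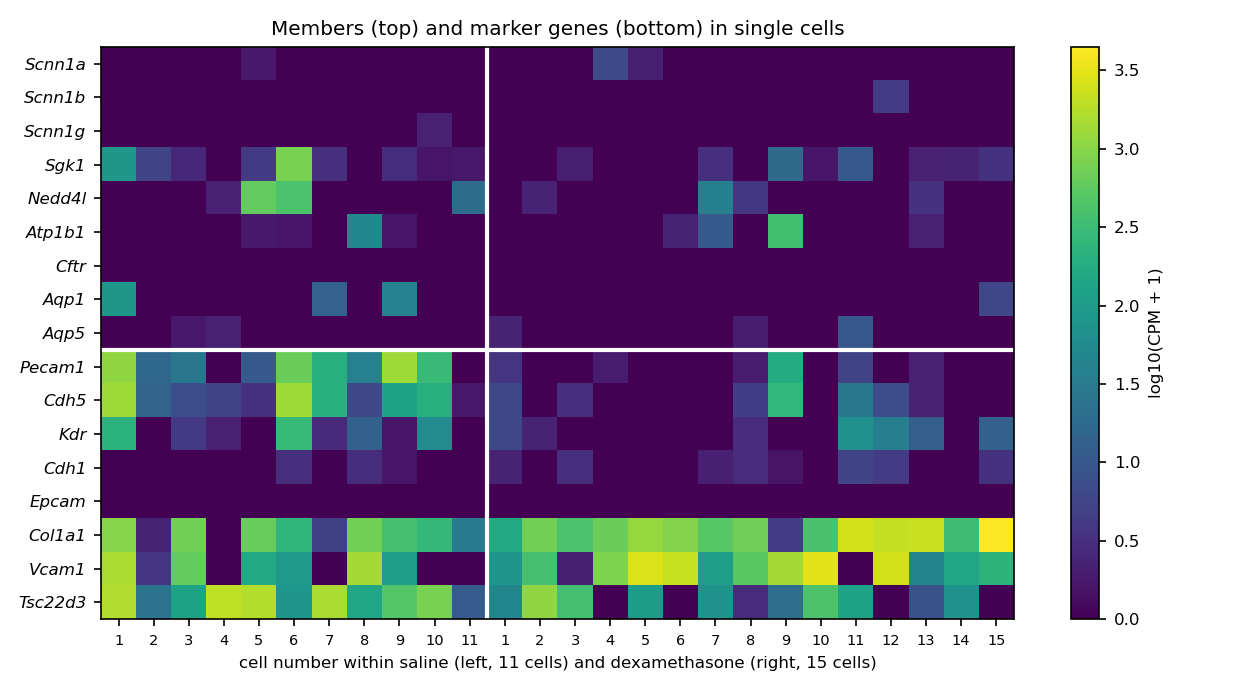
The 9 members (upper rows) and 8 marker genes (lower rows) in each single cell as log10(CPM + 1), with the 11 saline cells on the left and the 15 treated cells on the right. Bright Sgk1 and Aqp1 cells are also bright for Pecam1, while the rows of Cftr and Epcam are at 0 in all 26 cells. The epithelial gene Cdh1 reaches 4.64 CPM.

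For each member the genes with the most similar profile were taken by Pearson's r of log2(CPM + 1) over the 11 bulk libraries. The search covered 8782 or 8783 genes with a mean of 10 CPM or more over those libraries. The libraries share tables, sorts and cell mixtures, so r is a description. Cftr was followed most closely by Tspan15, Slco4c1 and Cdcp1 (r = 0.996, 0.991 and 0.988). Among the nearest to Sgk1 were Fam43a and Dusp1 (r = 0.966 and 0.960), and the nearest to Scnn1g were Tc2n, Btaf1 and Cyp2f2 (r = 0.966, 0.957 and 0.949). Nedd4l lay nearest to Ppp1r3b, Atp8a1 and Trp53bp2 (r = 0.973, 0.972 and 0.971), and Atp1b1 to Zbtb18, Taok3 and Anxa4 (r = 0.982, 0.982 and 0.981). The best matches of Scnn1b, at 0 to 24 counts a library, were Tmem63b, Epha4 and Hook1 (r = 0.947, 0.946 and 0.943). Scnn1a (Trak1, Rab11a and Ppil4, r = 0.927, 0.925 and 0.910), Aqp1 (among others Cav2 and Itsn2, r = 0.866 and 0.865) and the scarce Aqp5 (Mdm2, Srsf5 and Prkx, r = 0.872, 0.867 and 0.854) had looser matches. No gene in these 9 sets was shared between members.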

How the data were processed

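Counts for 11 bulk libraries and 26 single cells are in 4 deposited tables. The deposited values were handled as estimated counts per gene, because 5.35 to 9.21% of bulk values were not whole. Per the submitters' processing notes the build was mm10, and TopHat2 and Partek were among the tools, with roles not stated. How reads were counted, and whether by strand, is not given in the sources used here. The CD106+ dexamethasone column has a name found in none of the labels; the assignment rests on that table being named for no other sample. A depletion of CD45, CD31 and CD309 is described per the labels' protocols for the accessibility samples only.

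Counts were rounded, filtered with filterByExpr, scaled by TMM and tested with edgeR 4.0.16 in R 4.3.3 (quasi-likelihood test, robust, Benjamini-Hochberg at 0.05), fitting only the groups under comparison. Levels are CPM of the column total, and folds without a test are ratios of CPM. A pseudocount of 1 was added where genes were counted past 2-fold and in the log2 ratios of single cells. Genes named are the 9 members, up to 4 of each other list by smallest p, target and marker genes, and the 3 most similar genes per member. Kdr, Hopx, Scgb1a1, Meox2 and Ddx3y were added after their values were seen. Some genes that these rules pick are not reported here. The members and lists were chosen with earlier results of these data known. Tested on simulated data with 200 changed genes, edgeR called 74 of 99 planted log2 changes of 2 in a design like that of the mesenchyme (10884 genes) and 64 of 91 in one like that of the fractions (12104 genes), but 15 of 92 and 16 of 104 changes of 1. Alternatives were DESeq2 1.42.0, limma-voom, other scalings and filters, a replicate block, covariates and left-out libraries. No replicate pair agreed within sampling noise. Positions and promoter windows come from RefSeq (GRCm38.p6), and 7 of 9 members had a window. Plots used matplotlib 3.10.9.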

Additional observations from a re-analysis of the deposited data

Results flagged for a closer look

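Scnn1b, the beta subunit of the sodium channel, stood at 0.90 CPM in dexamethasone mesenchyme pool 3 and at 0 in the other treated pools. Aqp5, the apical water channel of type I cells, stood at 1.13 CPM in pool 4 and at 0 in the others. With 0 counts in the other treated pools, any pool with a count is set apart, so the flag is no sign of a difference. The values rest on 2 and 3 counts.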

How the results depend on the processing

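In the mesenchyme 306 genes passed with edgeR, against 598 with no filter, 512 with DESeq2, 154 with the replicate number as a block, 186 with Xist as a covariate and 131 with Cdh1 as a covariate, an alternative added after seeing the data. Leaving out 1 pool at a time gave 179 to 335. Between CD106 fractions 1239 passed, 1276 with the block and 546 to 2756 with 1 library left out. The same numbers did not pair the samples (correlations of deviations -0.05 and 0.05 in the mesenchyme and 0.01 between fractions). Scnn1a kept its direction in all 15 alternatives, at 2.26 to 4.30 with adjusted p from 1.5e-05 to 0.24, but did not pass with limma-voom or the block (adjusted p = 0.24 and 0.13). Sgk1 passed with DESeq2 (adjusted p = 0.030). Of the members that did not pass, Scnn1g turned to -0.41 with the block and -2.77 with Xist, Nedd4l to -0.40 with Xist and -0.48 without saline pool 2 (range with 1 pool left out -0.48 to 1.56), and Aqp1 to -0.14 with the block and -0.23 with Xist; the cause was not tested. Between fractions, Aqp1 passed without CD106+ library 1 (adjusted p = 0.0017), Scnn1a without CD106+ library 2 (0.030), and Atp1b1 lost its call with the block (0.089). For the treated CD106+ library 2899 genes were past 2-fold, and an edgeR fit with both fractions, which assumes that the lone library varies like the others, called 1842, among them Sgk1, Aqp1, Scnn1a and Cftr (log2 5.85, 3.07, 1.72 and -1.61). Without the Pecam1 cells, the log2 ratio of dexamethasone to saline cells (CPM plus 1) turned to -1.998 for Atp1b1 and 0.23 for Aqp1. The Aqp1 value rests on 2 counts in 1 treated cell, against 0 CPM in the saline cells that were left.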
